A study of Homo sapiens with 36 samples.

Results

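The antioxidant programme governed by NRF2 was followed through 9 of its genes in HCT-116 cells, an established human colorectal carcinoma line: NQO1, HMOX1, SLC7A11, GCLC, GCLM, TXN, TXNRD1, SRXN1 and PRDX1. They were taken by name from the 62757 genes of the count tables. All 9 were among the 12356 genes that averaged 64 raw counts or more in 1 or more groups. The set was selected in part on measured values of these libraries, a lower PRDX1 level in cells given the degrader #11. Every difference between #11 and its control is therefore given as a description, without a test. The same holds for each PRDX1 comparison that uses KO esiCT cells, whose PRDX1 values were part of that choice.

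RNA-seq was made from 24 libraries in 8 groups of 3. The parental cells (WT) were either untreated or exposed to 50 µM oxaliplatin (OXPT), a platinum drug that crosslinks DNA, for 24 h. The other 6 groups were FBXW7-/- cells (KO), which lack the substrate receptor of an SCF ubiquitin ligase. They were bought as a knockout line, and the number of clones behind it was not stated. KO cells received the control esiRNA (esiCT), an esiRNA pool against HDAC4 (esiHDAC4), or esiCT together with #11, for 48 h in all, and each of these was sampled untreated and after OXPT. Compound #11 is a PROTAC that recruits the VHL ubiquitin ligase to class IIa histone deacetylases. Its dose stands as 1 µM in the treatment entry of the labels and as 10 µM in their description entry. Untreated cells received the solvents, water for OXPT and DMSO for #11. For the 6 WT libraries the titles name the control siRNA but the treatment entry names esiHDAC4, so the esiRNA they carried was not settled and is left out of their names. A further 12 WT libraries carried contradictory entries on OXPT itself and entered no comparison. Nothing in the labels says that the 3 libraries of a group came from separate cultures, so all p-values measure only the spread between these libraries.

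NRF2, encoded by NFE2L2, is a transcription factor that KEAP1 and the CUL3 ligase keep at a low level. When electrophiles or oxidants modify KEAP1, NRF2 accumulates, pairs with a small MAF protein (MAFF, MAFG or MAFK) and binds antioxidant response elements, from which BACH1 otherwise represses transcription. Its targets supply the 2 thiol systems of the cell: glutathione, made from cystine that SLC7A11 imports and from the GCLC and GCLM enzyme, and thioredoxin (TXN), which TXNRD1 keeps reduced and which serves peroxiredoxins such as PRDX1. SRXN1 repairs over-oxidised peroxiredoxins, NQO1 reduces quinones, and HMOX1 breaks down heme.

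The core of the antioxidant response element, TGACNNNGC, was looked for on both strands from 250 bases before to 50 bases after each RefSeq start site on GRCh38.p14. Entries were at hand for 6 of the 9 genes, with 7 start sites. HMOX1, SLC7A11 and PRDX1 had none. The core was found at 3 of these 7 start sites, against 4687 of 35116 promoters (13.3%) of the same length. These start sites belong to GCLM and TXNRD1, which lay on the same side of their group means in 20 of 24 libraries. GCLC, in whose window the core was not found, did so with each of them in 21 of 24. Whether a match goes with such shared movement was not tested. The matches are printed below. The core or its complement on the opposite strand is in capitals, with 20 bases on either side, read in the direction of the gene.
GCLM, chr1:93909436-93909484, minus strand, 34 bases before the start: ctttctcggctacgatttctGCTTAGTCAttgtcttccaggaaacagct
TXNRD1, chr12:104215660-104215708, plus strand, 99 bases before the first start: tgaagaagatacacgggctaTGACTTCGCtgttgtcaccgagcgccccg
TXNRD1, chr12:104286910-104286958, plus strand, 102 bases before the second start: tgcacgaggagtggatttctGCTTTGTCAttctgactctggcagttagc
The first TXNRD1 window held another match 8 bases before the start. In the windows of GCLC, TXN, NQO1 and SRXN1 these letters were not found, and bases farther from the start were not searched. A match in these letters is a description of the sequence and not a bound site.

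The libraries held 10725966 to 20527222 reads counted on genes, and 7.74% to 22.3% of reads were unmapped. The 3 libraries named next were singled out after their values were seen. WT untreated replicate 3 stood apart from its group, with 1212 CPM of the p53 target CDKN1A against 378 and 286 and with 500.4 CPM of the stress gene TRIB3 against 49.8 and 54.0. KO esiCT OXPT replicate 3 had the highest unmapped share, and KO esiHDAC4 OXPT replicate 1 was the highest of its group for 7 of the 9 genes. Their effect on single values is given beside those values. HDAC4 mRNA was 18.3, 13.9 and 24.7 CPM with esiCT and 8.87, 8.73 and 14.8 CPM with esiHDAC4 in untreated KO cells, a log2 difference of -0.82 that did not pass the test (edgeR adjusted p = 0.561). Because #11 acts on the protein and the FBXW7 count covers the whole gene, neither mRNA checks those labels. Of 9 epithelial and intestinal markers, 6 had a median count of at least 64, and CDX1, CDH17 and VIL1 were at medians of 0 or 1. COL1A1 was the only one of 4 fibroblast markers above a median of 12, and all leukocyte and endothelial markers were below it. The summed level of the epithelial and intestinal markers was 5097 to 10222 CPM in untreated and 8431 to 21443 CPM in OXPT libraries, and its part in the OXPT results was not tested. In these bulk RNA samples a lower level in each cell and fewer cells holding a transcript cannot be told apart.

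Levels were compared as CPM after TMM scaling, and between genes as CPM per kb of exon. PRDX1 was the most abundant of the 9, with a median of 481 CPM per kb over the 24 libraries, followed by TXN at 405 and NQO1 at 172 CPM per kb. TXNRD1 stood at 42.6 and HMOX1 at 23.9 CPM per kb. The glutathione genes were far lower, at 5.82 CPM per kb for GCLC, 5.68 for GCLM and 1.29 for the transporter SLC7A11. SRXN1 had 1.41 CPM per kb. The length used holds all exon bases, also those shared with another gene, where reads were dropped. The values are thus too low for SRXN1 (90.7% shared) and PRDX1 (29.8% shared), and the place of SRXN1 in this order is not settled. The highest library exceeded the lowest by 2.54-fold for GCLC, 3.21-fold for TXN, 3.38-fold for TXNRD1, 4.10-fold for GCLM, 4.17-fold for PRDX1, 4.78-fold for NQO1 and 5.49-fold for HMOX1. The widest ranges were those of the 2 genes with the lowest median counts (172 and 52.5), 34.4-fold for SLC7A11 and 83.7-fold for SRXN1.

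PRDX1 and SRXN1 share exon sequence with another gene, and reads there were dropped. PRDX1 lies on the minus strand of chromosome 1 (45510914-45542732) and shares 501 of its 1682 exon bases (29.8%) with MMACHC, a vitamin B12 trafficking gene on the opposite strand. Reads in the shared stretch are dropped when strand is ignored. The count without strand was below the sum of the counts for both strands by 33.5% to 53.9% of that sum in 23 libraries and by 72.8% in KO esiCT OXPT replicate 3. MMACHC loses the same stretch, and was at 15.3 to 24.1 CPM without strand. In the summed counts the shared reads enter both genes, and MMACHC was then at 169.7 to 1444 CPM, with 1444 CPM in KO esiCT OXPT replicate 3 against 555 and 578 CPM in the other libraries of that group. By group mean the summed MMACHC level was 183 CPM in untreated #11 and 497 CPM in untreated esiCT cells, where summed PRDX1 was at 415 and 1187 CPM. From which of the 2 genes the shared reads came was not tested, so PRDX1 is given under both ways of counting. SRXN1 (chromosome 20, 646615-653200) shares 90.7% of its exon bases with a longer gene on the same strand, ENSG00000270299, and was left with 1 to 164 counts per library. Its group means reached 64 counts only in KO esiHDAC4 OXPT (87.7) and WT OXPT (66.0), so it passed the filter through those groups and its values are uncertain. Smaller exon overlaps with antisense or neighbouring transcripts were 19.4% for NQO1 (ENSG00000261602), 8.97% for SLC7A11 (SLC7A11-AS1), and 3.54% and 6.14% for GCLC (GCLC-AS1 and ENSG00000231683). HMOX1, GCLM, TXN and TXNRD1 shared no exon bases with another gene.

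OXPT was compared with its untreated control in each of the 4 backgrounds, with a call set at an adjusted p under 0.05 (edgeR quasi-likelihood test, Benjamini-Hochberg over 12356 genes) and more than a 1.5-fold change. The calls among the tested changes of these genes were 2: HMOX1 rose in KO esiHDAC4 cells and SLC7A11 fell in KO #11 cells. In KO esiCT cells PRDX1 was described only, and 0 of the 8 genes tested were called in either direction. There 6.23% of all genes were called higher and 5.08% lower. In WT cells the count was also 0 of 9, against 5.1% higher and 5.6% lower. In KO esiHDAC4 cells 1 of 9 was called higher and 0 lower, against 6.44% and 5.54%. In KO #11 cells 1 of the 8 genes tested was called lower and 0 higher, against 3.57% and 5.94%. The median log2 change of the 9 genes was -0.12 in KO esiCT, 0.05 in WT, 0.37 in KO esiHDAC4 and 0.01 in KO #11 cells, beside medians over all genes of 0.01, -0.06, 0.02 and -0.00. SRXN1, which passed the count minimum through OXPT groups, is among the 9. At an unadjusted p under 0.05 in edgeR there were 3, 3, 2 and 3 members in the same order of backgrounds. Of all 12356 genes, 3221, 3056, 3139 and 2900 had such a p. DESeq2 called 0, 1, 1 and 1 members, and its calls over all genes lie within the ranges given for the settings below. CDKN1A rose with OXPT in all 4 backgrounds, by 2.55 to 3.18 on the log2 scale.

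**Figure D1:**
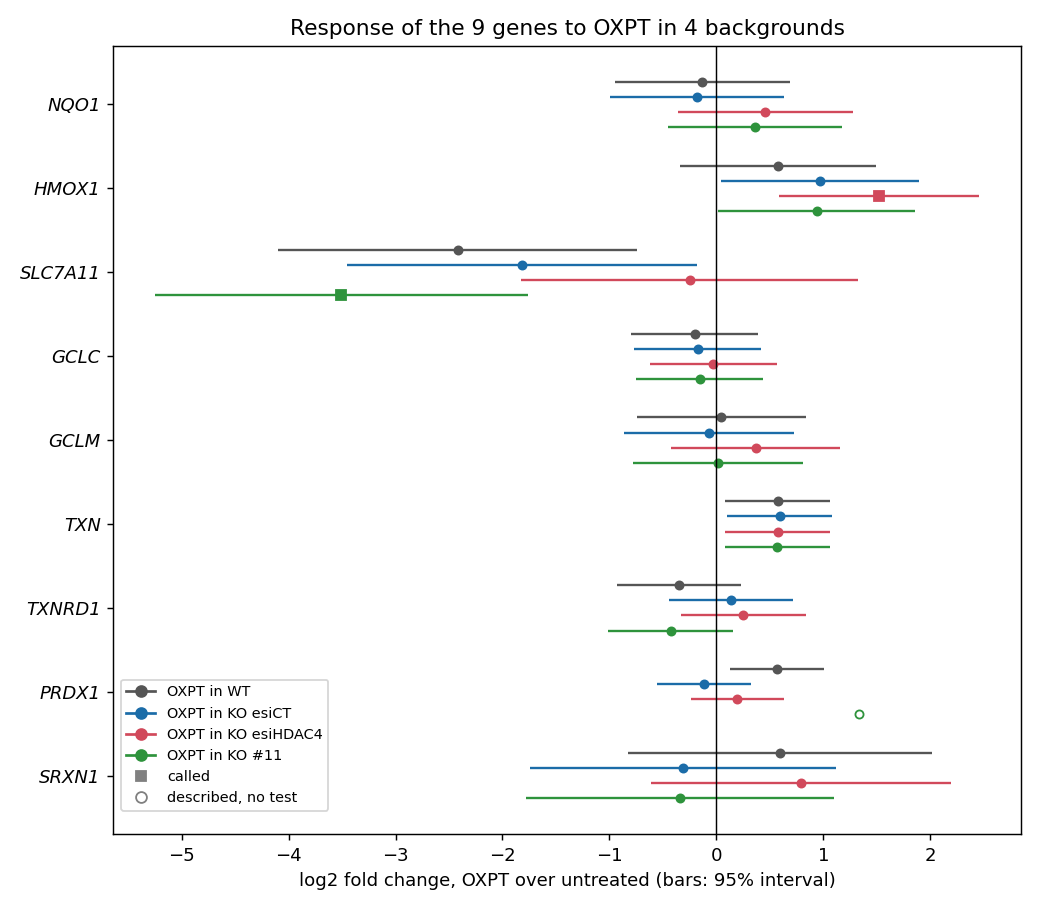
Log2 fold change of OXPT over untreated for the 9 genes in WT (grey), KO esiCT (blue), KO esiHDAC4 (red) and KO #11 (green) cells, with 95% intervals from the edgeR fit (n = 3 against 3). Squares mark the 2 called changes, HMOX1 at 1.52 and SLC7A11 at -3.51, and the 4 TXN estimates lie within 0.57 to 0.59. The open circle is PRDX1 in #11 cells (1.33), which was described only. PRDX1 in KO esiCT cells is drawn with an interval but was also described only.

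HMOX1 (chromosome 22, 35380361-35394214) encodes the inducible heme oxygenase. In KO esiHDAC4 cells it was at 30.8, 35.4 and 38.8 CPM untreated and at 80.5, 62.7 and 159 CPM with OXPT. Every OXPT library lay above every untreated one, and replicate 3 was the highest. The log2 fold change was 1.52 ± 0.45 (SE), with an adjusted p of 0.0299 from edgeR. Without OXPT replicate 3 of this group it was 1.03, with an adjusted p of 0.204, and leaving out any 1 of the 3 untreated libraries also lost the call (adjusted p = 0.0762 to 0.127).

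In the other KO backgrounds HMOX1 had similar values. KO esiCT cells had 30.1, 43.6 and 37.7 CPM untreated against 54.5, 55.5 and 109 CPM with OXPT. KO #11 cells had 30.6, 32.5 and 34.6 CPM against 59.6, 58.8 and 68.8 CPM. The treated and untreated ranges did not overlap in either, yet the log2 changes of 0.97 (adjusted p = 0.169, edgeR) and 0.94 (adjusted p = 0.206, edgeR) were not called. The first was 0.56 without KO esiCT OXPT replicate 3. The response to OXPT differed between esiHDAC4 and esiCT cells by 0.55 on the log2 scale, with a 95% interval from -0.74 to 1.85 (edgeR interaction, adjusted p = 1.00).

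WT cells gave HMOX1 values of 40.2, 37.0 and 146 CPM untreated and 64.5, 103 and 165 CPM with OXPT. The ranges overlapped, because untreated replicate 3, the library that stood apart, was nearly as high as the highest treated one. The log2 change was 0.58 (adjusted p = 0.453, edgeR), and without that library it was 1.54 (adjusted p = 0.0112). Ordered by group mean, HMOX1 was lowest in the 3 untreated KO groups (32.6 to 37.1 CPM) and highest in WT OXPT (111 CPM). The only neighbours in that order whose ranges did not overlap were untreated KO esiCT and KO #11 with OXPT.

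NQO1 (chromosome 16, 69706996-69726668) encodes the quinone reductase often used as a readout of NRF2. It was at 653, 325 and 584 CPM in WT untreated cells and at 614, 305 and 509 CPM with OXPT. KO esiCT cells had 676, 464 and 607 CPM untreated and 681, 264 and 598 CPM with OXPT. Replicate 2 was the lowest in all 4 of these groups, and the treated and untreated ranges overlapped. KO esiHDAC4 cells had 792, 483 and 501 CPM untreated and 1264, 396 and 778 CPM with OXPT, whereas KO #11 cells had 412, 439 and 499 CPM and 450.3, 511 and 776 CPM. The log2 changes with OXPT were 0.36 in KO #11, 0.46 in KO esiHDAC4, -0.13 in WT and -0.18 in KO esiCT cells, with edgeR adjusted p-values of 0.506 to 0.875. Ranges of neighbouring groups overlapped throughout, from a mean of 450.1 CPM in untreated #11 cells to 813 CPM in KO esiHDAC4 cells with OXPT.

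SLC7A11 (chromosome 4, 138164097-138242349) encodes the light chain of the cystine and glutamate antiporter and is a target of ATF4 as well as of NRF2. KO #11 cells held 73.6, 48.9 and 89.8 CPM untreated and 4.28, 3.27 and 11.1 CPM with OXPT. All untreated libraries were far above all treated ones. SLC7A11 fell by 3.51 on the log2 scale (SE 0.84, edgeR adjusted p = 0.0105). The call was lost without OXPT replicate 1 (-3.30, adjusted p = 0.0654) or replicate 2 (-3.20, adjusted p = 0.0664) of this group, and was kept when any 1 other library was left out. The untreated #11 level in this test is the same one that stood above esiCT in the comparison that was only described.

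SLC7A11 was also lower with OXPT in WT cells, at 13.3, 30.8 and 37.2 CPM untreated against 8.91, 3.52 and 2.61 CPM. These ranges did not overlap. The log2 change was -2.42 ± 0.81 (SE) and narrowly missed the call (edgeR adjusted p = 0.0582), but with the replicate number as a block it was -2.71 and called (adjusted p = 0.0239). KO esiCT cells had 33.0, 37.1 and 7.20 CPM untreated and 14.6, 3.87 and 3.07 CPM with OXPT. Here each numbered pair was lower with OXPT but the ranges overlapped (log2 change -1.82, edgeR adjusted p = 0.146).

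KO esiHDAC4 cells had 26.0, 40.2 and 11.5 CPM of SLC7A11 untreated and 48.8, 10.6 and 5.79 CPM with OXPT, a log2 change of -0.25 (edgeR adjusted p = 0.873). Replicate 1 was the highest with OXPT, and without it the log2 change was -1.64. The OXPT response of esiHDAC4 cells differed from that of esiCT cells by 1.56, with a wide 95% interval from -0.69 to 3.82 (adjusted p = 1.00), by 0.20 without that library and by 2.63 without KO esiCT OXPT replicate 1. By group mean, WT, #11 and esiCT cells with OXPT were lowest (5.01 to 7.17 CPM), and of all neighbours in the order only untreated #11 cells (70.8 ± 20.6 CPM, SD, n = 3) did not overlap the group next to them, untreated WT cells (27.1 ± 12.4 CPM).

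GCLC (chromosome 6, 53497341-53616970), the catalytic subunit of glutamate-cysteine ligase, had the narrowest range. It was at 44.4, 80.5 and 47.4 CPM in WT untreated cells and at 44.6, 50.4 and 54.7 CPM with OXPT. KO esiCT cells had 47.8, 54.5 and 46.9 CPM untreated and 50.5, 33.6 and 48.0 CPM with OXPT. Treated and untreated libraries overlapped in every background. The log2 changes with OXPT were between -0.20 and -0.03, and their edgeR adjusted p-values between 0.716 and 0.965. The 95% interval in KO esiCT cells ran from -0.77 to 0.42, which includes a level 1.5-fold lower. KO esiCT cells with OXPT had the lowest group mean and untreated KO esiHDAC4 cells the highest (61.4 CPM), and neighbours in the order overlapped.

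GCLM (chromosome 1, 93885199-93909456) encodes the modifier subunit of the same enzyme. KO esiHDAC4 cells had 36.1, 52.9 and 31.5 CPM untreated and 78.2, 28.0 and 49.3 CPM with OXPT. Replicate 1 alone lay above the untreated range. In KO esiCT cells the values were 31.4, 42.7 and 24.9 CPM untreated and 29.6, 19.1 and 45.8 CPM with OXPT. The log2 changes in the 4 backgrounds were -0.07 (KO esiCT), 0.05 (WT), 0.37 (KO esiHDAC4) and 0.01 (KO #11), with edgeR adjusted p-values of 0.593 to 0.990. Without KO esiHDAC4 OXPT replicate 1 the third of these was -0.05.

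TXN (chromosome 9, 110243810-110256507), the cytosolic thioredoxin, was higher with OXPT by nearly the same amount everywhere without passing the test. WT cells had 369.6, 289 and 456 CPM untreated and 473, 490.4 and 695 CPM with OXPT. KO esiCT cells had 349, 394 and 361 CPM untreated and 437, 422 and 807 CPM with OXPT. KO esiHDAC4 cells had 322, 359 and 357 CPM and 431, 486 and 627 CPM, and KO #11 cells had 273, 331 and 252 CPM and 400, 452 and 419 CPM. In each of the 4 backgrounds all treated libraries lay above all untreated ones. The log2 changes were 0.59 in KO esiCT and 0.57 in each of the other 3 backgrounds, with edgeR adjusted p-values of 0.110 to 0.140. In KO esiCT cells the value depended on OXPT replicate 3, without which it was 0.22. In WT cells leaving out untreated replicate 3 brought it to 0.76 and a call (adjusted p = 0.0472), and leaving out KO esiCT OXPT replicate 3 to 0.59 and a call (adjusted p = 0.0457). The genotype interaction was 0.02, with a 95% interval from -0.67 to 0.71.

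TXNRD1 (chromosome 12, 104215779-104350307) encodes the selenoprotein that reduces thioredoxin. KO #11 cells held 277, 291 and 328 CPM untreated and 179.8, 186 and 301 CPM with OXPT. WT cells held 261, 466 and 492 CPM untreated and 281, 350.0 and 325 CPM with OXPT. In #11 cells all 3 numbered pairs were lower with OXPT, but replicate 3 kept the ranges overlapping. The log2 changes were -0.43 in #11, -0.35 in WT, 0.14 in KO esiCT and 0.25 in KO esiHDAC4 cells (edgeR adjusted p = 0.389 to 0.803).

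SRXN1, the sulfiredoxin, was at 2.17, 3.94 and 3.67 CPM in untreated KO esiCT cells and at 5.11, 2.22 and 0.12 CPM with OXPT. The last value was a single count, in the library with the most unmapped reads, without which the log2 change in KO esiCT cells was 0.18. Log2 changes with OXPT lay between -0.34 and 0.79 over the 4 backgrounds, with standard errors of 0.67 to 0.69, and none passed the edgeR test (adjusted p = 0.501 to 0.817).

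PRDX1, the abundant cytosolic peroxiredoxin, was at 806, 718 and 448 CPM in WT untreated cells and at 958, 954 and 1006 CPM with OXPT. The ranges did not overlap, and untreated replicate 3 was the lowest. The log2 change was 0.57 ± 0.21 (SE, edgeR adjusted p = 0.0912), and 0.36 without that library (adjusted p = 0.227). With both strands summed the levels were 1204, 953 and 845 CPM untreated and 1428, 1397 and 1385 CPM with OXPT, again without overlap. That log2 change was 0.49 with RLE scaling (edgeR adjusted p = 0.126) and 0.60 with TMM scaling (adjusted p = 0.0379), so whether it is called turned on the scaling.

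In KO esiCT cells the direction for PRDX1 turned with the counting. Without strand the values were 811, 918 and 709 CPM untreated and 896, 723 and 632 CPM with OXPT, a log2 change of -0.12. With both strands summed they were 1255, 1300.3 and 1006 CPM untreated and 1317, 1187 and 1960.4 CPM with OXPT, a log2 change of 0.33. OXPT replicate 3 was the lowest of its group in the first count and the highest in the second. KO esiHDAC4 cells had 873, 923 and 769 CPM untreated and 1045, 880.1 and 1016 CPM with OXPT, with a log2 change of 0.20 (edgeR adjusted p = 0.611), or 0.31 with both strands summed.

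Compound #11 was compared with esiCT in KO cells as a description, since these values were known when PRDX1 was taken into the set. Untreated KO #11 cells held 251, 265 and 348 CPM of PRDX1 against 811, 918 and 709 CPM with esiCT. The ranges were far apart, with a log2 difference of -1.50, or -1.51 with both strands summed. With OXPT, #11 cells held 592, 722.5 and 856 CPM, which overlapped the esiCT cells (896, 723 and 632 CPM), with a log2 difference of -0.05. With both strands summed the #11 cells held 1003, 1085 and 1307 CPM, still overlapping, with a log2 difference of -0.39. Within #11 cells PRDX1 was thus higher with OXPT by 1.33 on the log2 scale, or 1.45 with both strands summed. By group mean without strand, untreated #11 cells (288 ± 52.5 CPM, SD, n = 3) were the lowest and did not overlap the next group, untreated WT cells (657 ± 187 CPM). The only other gap between neighbours lay between untreated KO esiHDAC4 (855 ± 78.8 CPM) and WT OXPT (mean 973 CPM).

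**Figure D2:**
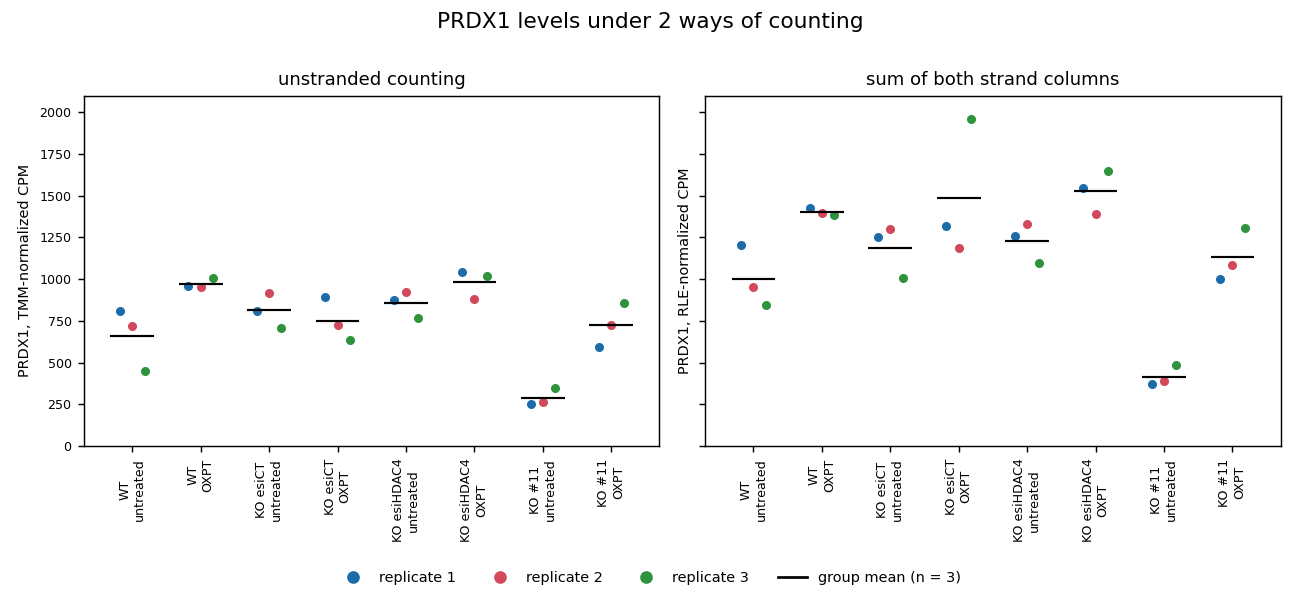
PRDX1 in the 24 libraries (CPM, linear axis from 0), counted without strand and scaled by TMM (left) or with both strand columns summed and scaled by RLE (right), coloured by replicate, with a bar at each group mean. Untreated #11 cells are lowest in both panels (251 to 348 and 369 to 486 CPM), and KO esiCT OXPT replicate 3 moves from 632 CPM, the lowest of its group, to 1960.4 CPM, the highest.

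Of the 9 genes, 1 was more than 1.5-fold lower in untreated #11 cells (PRDX1) and 1 more than 1.5-fold higher (SLC7A11), where 8.21% and 9.3% of all genes were. SLC7A11 was at 73.6, 48.9 and 89.8 CPM with #11 against 33.0, 37.1 and 7.20 CPM with esiCT, a log2 difference of 1.46 without overlap. TXN was also below esiCT without overlap, by a log2 difference of -0.37, at 273, 331 and 252 CPM against 349, 394 and 361 CPM. The other 6 genes lay between -0.37 (NQO1) and 0.33 (TXNRD1) with overlapping ranges. With OXPT, 0 of 9 were past 1.5-fold in either direction, against 9.98% of all genes lower and 7.36% higher. The difference between the OXPT responses of #11 and esiCT cells was past 1.5-fold for PRDX1 (1.45, or 1.12 with both strands summed and RLE scaling) and SLC7A11 (-1.69), against 9.02% of all genes higher and 11.9% lower. For SLC7A11 it ran from -2.41 without #11 OXPT replicate 3 to -0.60 without KO esiCT OXPT replicate 1. These comparisons and the esiHDAC4 and KO against WT comparisons share the esiCT libraries.

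Silencing of HDAC4 was compared with esiCT in KO cells. Untreated, PRDX1 was described only and 0 of the other genes were called (0.00809% of all genes, either direction). TXNRD1 was at 362, 395 and 278 CPM with esiHDAC4 against 207, 278 and 226 CPM with esiCT. Its ranges were separated by less than 1 CPM, and its log2 difference of 0.54 had an edgeR adjusted p of 1.00. GCLC was at 61.3, 61.8 and 61.3 CPM against 47.8, 54.5 and 46.9 CPM. Its ranges did not overlap, but the log2 difference of 0.30 was within the spread of the fit (edgeR adjusted p = 1.00).

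With OXPT, NQO1, HMOX1, SLC7A11, GCLC, GCLM, TXNRD1 and PRDX1 had log2 differences of 0.39 to 1.57 between esiHDAC4 and esiCT cells. SRXN1 had 1.09, but passed the count minimum through the esiHDAC4 group itself. With PRDX1 left as a description, 0 of the other genes were called in edgeR. Of all genes 0% were called, 380 had an unadjusted p under 0.05, and DESeq2 called 13. TXNRD1 was at 609, 281 and 345 CPM against 309, 211 and 261 CPM, higher in all 3 numbered pairs (0.66, unadjusted p = 0.0284 and adjusted p = 1.00 in edgeR). GCLM was at 78.2, 28.0 and 49.3 CPM against 29.6, 19.1 and 45.8 CPM, with a log2 difference of 0.72. SLC7A11 had a log2 difference of 1.57, with a 95% interval from -0.06 to 3.20, and 2.65 without KO esiCT OXPT replicate 1. TXN had -0.11, and 0.26 without KO esiCT OXPT replicate 3. For NQO1, GCLC, GCLM, TXNRD1, SLC7A11, SRXN1 and PRDX1 the highest value of the esiHDAC4 group came from replicate 1. Without that library the log2 differences were 0.19 for SLC7A11, 0.20 for NQO1, 0.12 for GCLC, 0.31 for GCLM, 0.28 for TXNRD1, 0.40 for SRXN1, 0.35 for PRDX1 and 0.011 for TXN. For HMOX1 the difference of 0.47 was -0.0078 without esiHDAC4 OXPT replicate 3 and 0.87 without KO esiCT OXPT replicate 3. With PRDX1 left out, the OXPT response differed between esiHDAC4 and esiCT cells for 0 of the genes tested. Of all genes 0% were called, 19 had an unadjusted p under 0.05, and DESeq2 called 0.

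KO cells were compared with WT cells, with the esiRNA of the WT cells unsettled. PRDX1 was described only, and untreated 0 of the other genes were called (0.291% of all genes). TXNRD1 was at 207, 278 and 226 CPM in KO esiCT and at 261, 466 and 492 CPM in WT cells, lower in all 3 numbered pairs but overlapping in range (log2 difference -0.78, edgeR adjusted p = 0.534). PRDX1 had a log2 difference of 0.31, and 0.096 without WT untreated replicate 3. HMOX1 had a log2 difference of -0.999 (edgeR adjusted p = 0.775), and -0.053 without WT untreated replicate 3. With OXPT, 0 of these other genes were called (0.138% of all genes). As a description, PRDX1 was then at 896, 723 and 632 CPM in KO and at 958, 954 and 1006 CPM in WT cells, without overlap. Its log2 difference was -0.37, but with both strands summed and RLE scaling it was 0.08. With PRDX1 left out, the OXPT response differed between genotypes for 0 of the genes tested in edgeR. Of all genes 0% were called, 201 had an unadjusted p under 0.05, and DESeq2 called 0.

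Libraries of 1 group differed from each other by amounts that varied between the genes. After subtraction of the group mean of log2 CPM, the SD over the 24 libraries was 0.89 for SRXN1 and 0.88 for SLC7A11, 0.48 for HMOX1, 0.44 for NQO1 and 0.41 for GCLM. It was smallest for PRDX1 (0.20) and TXN (0.23), with TXNRD1 at 0.29 and GCLC at 0.30. GCLC and GCLM, the subunits of 1 enzyme, lay on the same side of their group means in 21 of 24 libraries, as did GCLC and TXNRD1, and all 3 did so in 19. SLC7A11 and TXN did so in 8 of 24. These counts describe libraries that share depth and handling, and a scaling error would move all genes of a library together. Deviations also followed the replicate number for some genes. HMOX1 was highest in replicate 3 in 7 of the 8 groups and NQO1 in replicate 1 in 6 of 8, and the part of handling in this was not tested.

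The regulators of NRF2 were read from a list of 10 genes, all tested. With OXPT 2 of them rose in KO esiCT and in KO esiHDAC4 cells, 0 in WT and KO #11 cells, and 0 were called lower. The share of all genes called higher was 6.23% in KO esiCT, 6.44% in KO esiHDAC4, 5.1% in WT and 5.94% in KO #11 cells. The 2 called genes were MAFF and MAFG, the small MAF partners. MAFF was at 17.0, 16.6 and 24.7 CPM in untreated KO esiCT cells and at 40.7, 59.0 and 69.5 CPM with OXPT, without overlap. It rose by 1.53 on the log2 scale (edgeR adjusted p = 0.0181), and by 1.44 in KO esiHDAC4 cells (adjusted p = 0.0252). MAFG rose by 0.99 and 0.98 (adjusted p = 0.0266 and 0.0273). In #11 cells MAFF was already at 52.3, 52.4 and 44.4 CPM untreated and at 36.5, 34.7 and 43.0 CPM with OXPT (-0.38, adjusted p = 0.610).

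NFE2L2, the gene of NRF2 itself, had log2 changes with OXPT of 0.02 in KO esiCT, -0.02 in WT, 0.17 in KO esiHDAC4 and -0.79 in KO #11 cells, and none was called by edgeR. It shares 23.4% of its exon bases with HNRNPA3 on the opposite strand, so its counts are partial. KEAP1 values were 0.37, 0.47, 0.61 and 0.54 in the same order (edgeR adjusted p = 0.108 to 0.352). BACH1 lay between -0.67 and -0.15 with standard errors above 0.7, and MAFK between -0.16 and 0.70, and neither was called.

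Among 26 other genes known as NRF2 targets, 21 passed the count minimum. With OXPT 3 rose in KO esiCT, 3 in WT, 4 in KO esiHDAC4 and 3 in KO #11 cells, and 1, 0, 0 and 0 fell. Of all genes 6.23%, 5.1%, 6.44% and 5.94% were called higher in the same order, and 5.08%, 5.6%, 5.54% and 3.57% lower. The 3 genes called in all 4 backgrounds were AKR1B10, ABHD4 and SLC48A1. AKR1B10, an aldo-keto reductase, was at 0.95, 0.99 and 0.65 CPM in untreated KO esiCT cells and at 21.0, 9.83 and 15.0 CPM with OXPT. All treated libraries exceeded all untreated ones by far in all 4 backgrounds. The log2 changes were 4.13 in KO esiCT, 3.49 in WT, 4.09 in KO esiHDAC4 and 4.34 in KO #11 cells (edgeR adjusted p of 1.15e-05 to 3.99e-05). In untreated KO esiCT cells AKR1B10 lay below the count minimum, which the KO esiCT libraries with OXPT passed. The size of its change and its p-value there therefore rest on few untreated counts and are uncertain. Its untreated counts in the other backgrounds are not given here, so its changes and p-values in those are to be held with the same caution. ABHD4, a lipid hydrolase, rose by 1.54 to 1.83 on the log2 scale, and SLC48A1, a heme transporter, by 0.96 (WT) to 1.297 (KO esiHDAC4). OSGIN1 rose in KO esiHDAC4 cells (1.87, edgeR adjusted p = 0.0244), where its values of 160, 68.2 and 136 CPM lay above the untreated 40.8, 32.0 and 26.8 CPM, and its changes of 0.28 to 1.11 elsewhere were not called. PIR fell by 1.03 in KO esiCT cells (adjusted p = 0.0177). The medians of the 21 genes with OXPT were 0.07, 0.02, 0.33 and 0.31 on the log2 scale, in the order KO esiCT, WT, KO esiHDAC4 and KO #11.

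Of 14 other thioredoxin family genes, 13 were tested and 0 were called with OXPT in any background, with median log2 changes between -0.02 and 0.23. PRDX2, another cytosolic peroxiredoxin, had log2 changes between -0.17 and -0.02. All 14 genes of glutathione use were tested, and in each of the 3 KO backgrounds 2 were called higher and 0 lower, namely GSS and GPX1. Among all genes 6.23% (esiCT), 6.44% (esiHDAC4) and 5.94% (#11) were called higher there. GSS, which completes glutathione synthesis, rose by 0.87 with esiCT, by 0.92 with esiHDAC4 and by 0.86 with #11 in KO cells, and had a log2 change of 0.75 in WT cells (edgeR adjusted p = 0.0656). GPX1, a glutathione peroxidase that shares 39.9% of its exon bases with another gene, rose by 0.88, 1.02 and 1.27 in the same order, with 0.85 in WT cells (adjusted p = 0.0505). Of 3 genes for superoxide and peroxide removal, SOD1 rose by 0.70 in KO #11 cells (adjusted p = 0.0282).

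Targets of ATF4, the transcription factor of the amino acid response that also acts on SLC7A11, were read from a list of 8 genes, of which 7 were tested. With OXPT 4 of them fell in KO #11 cells, as SLC7A11 did, namely ASNS (log2 change -2.89), TRIB3 (-2.48), PSAT1 (-1.88) and PHGDH (-1.54) (edgeR adjusted p = 0.00452 to 0.0272). Of all genes 3.57% were called lower there. TRIB3 was at 385, 368 and 216 CPM in untreated #11 cells and at 55.1, 53.7 and 64.2 CPM with OXPT. These genes do not stand for a uniform change, since ATF3 in the same list rose in KO esiCT (2.33) and KO esiHDAC4 (2.53) cells and PHGDH fell in KO esiCT (by 1.38) and WT (by 1.54) cells. As a description, all 7 were more than 1.5-fold higher in untreated #11 than in untreated esiCT cells, where 9.3% of all genes were. Their median log2 difference was 2.34. ASNS shares 49.3% of its exon bases with another gene on the same strand, so its level is uncertain. The part of ATF4 in the SLC7A11 values was not tested.

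**Figure D3:**
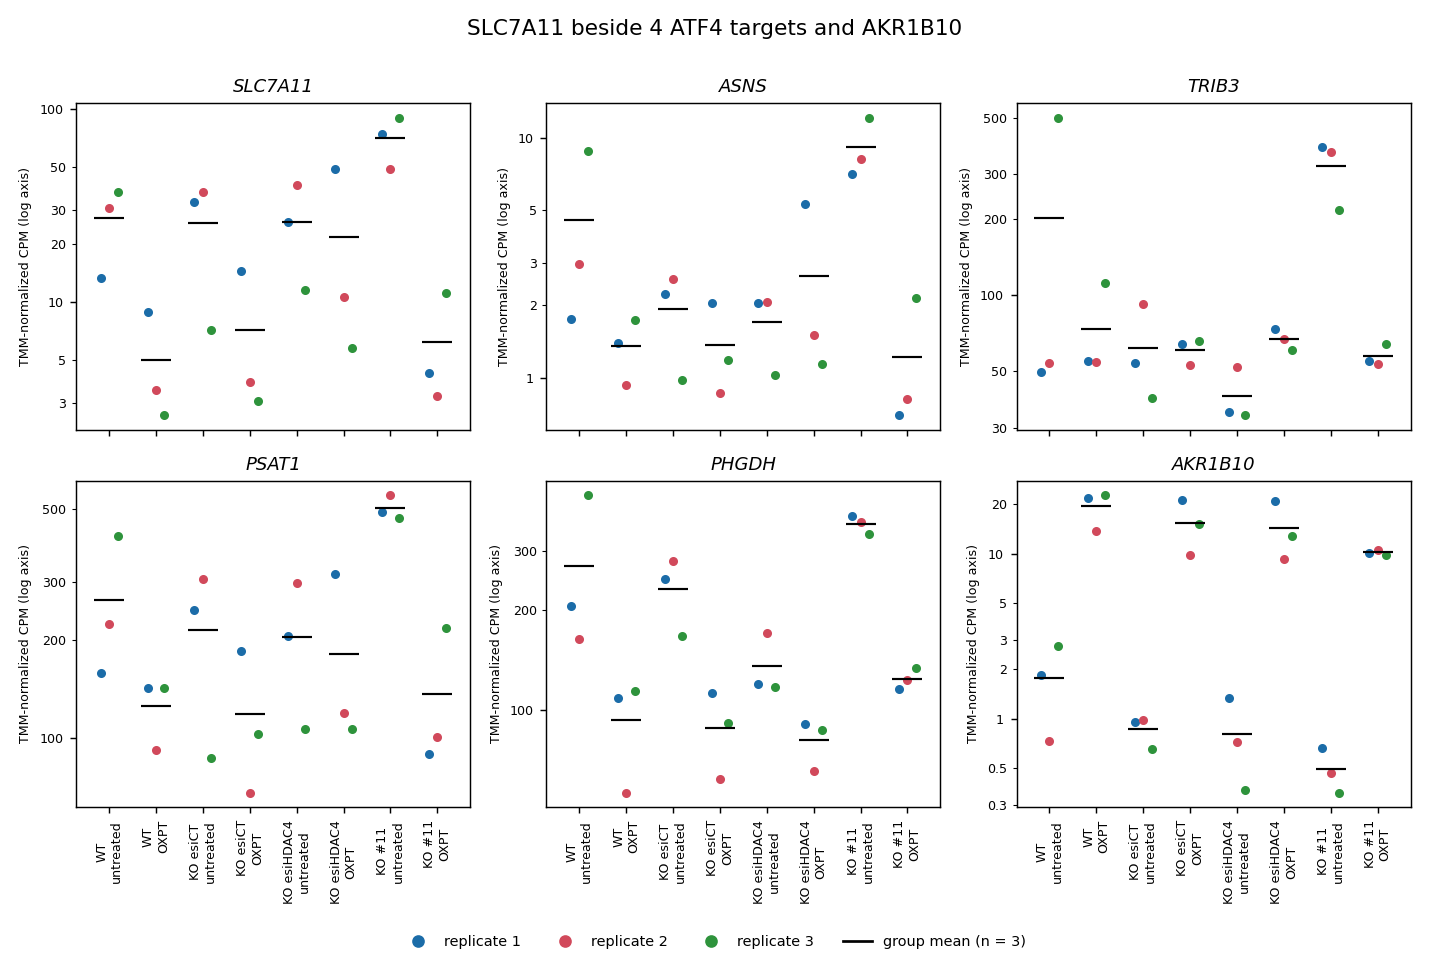
TMM-normalized CPM on a log axis of SLC7A11, the ATF4 targets ASNS, TRIB3, PSAT1 and PHGDH, and AKR1B10 in the 24 libraries, coloured by replicate, with a bar at each group mean (n = 3). SLC7A11, ASNS, TRIB3, PSAT1 and PHGDH fell with OXPT in #11 cells (SLC7A11 from 48.9 to 89.8 CPM down to 3.27 to 11.1 CPM), WT untreated replicate 3 is high for TRIB3 (500.4 CPM), and AKR1B10 rose with OXPT in all 4 backgrounds.

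The genes whose 8 group means of log2 CPM followed each member most closely were found by Pearson's r, as a description over 8 means that share libraries. PRDX1 was followed most closely by the chaperone gene DNAJA1 (r = 0.989) and by ADM (0.979), TXN by CSK (0.995) and DAPK3 (0.993), and HMOX1 by KRT8P33 (0.997) and PKP3 (0.996). SLC7A11 was followed by ENSG00000290535 (0.978) and EFCC1 (0.976), GCLC by DTD2 (0.968) and VRK2 (0.932), and GCLM by ZCCHC4 (0.944) and NSUN2 (0.935). TXNRD1 was followed by RAD23B (0.982) and ZNF330 (0.916), SRXN1 by NUBP1 (0.964) and GMPR2 (0.913), and NQO1 by ZNF654 (0.926) and ZNF731P (0.915). The 9 genes themselves were left out of this search, so none of them could be listed.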

How the data were processed

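RNA of 36 libraries of HCT-116 cells was sequenced, and 24 libraries in 8 groups of 3 were compared. Per the labels, the authors deposited raw counts per gene as STAR gives them without strand and for each strand. The submitters' processing notes name Trimmomatic 0.39, STAR 2.7.11a and hg38. The release of the gene annotation was not stated in them. The study's methods describe another quantification, so these counts are not the values tested there. Counts for the strands were nearly equal (reverse over forward 1.00 to 1.02), so the count without strand was used although the kit is described as stranded.

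Counts were tested with edgeR 4.0.16 in R 4.3.3 (TMM, quasi-likelihood F test, 24 libraries in 1 model), after a filter on a mean of at least 64 counts in at least 1 group. Genes were called at an adjusted p under 0.05 with more than a 1.5-fold change. SE is the log2 change divided by the square root of F. Gene positions are from GENCODE on GRCh38 (62130 of 62757 identifiers matched with their version, 62639 without it). Same-group pairs differed beyond sampling noise (chi-square per degree of freedom 8.31 to 224), so no library was counted as a repeat. Same-numbered libraries deviated together in all 10 tested comparisons (r = 0.113 to 0.788), so the fit with the replicate number as a block was added, and its value is given where it changed a call. TMM and RLE scaling differed by up to 0.07 (log2) on the count without strand but by up to 0.16 on the summed strands, whose levels were scaled by RLE. Alternatives were the other count columns, RLE, no filter, the block, only the groups compared, DESeq2 1.42.0 and leaving out each library. The summed strands with RLE, with the block or without KO esiCT OXPT replicate 3 were added after seeing the data. The genes and lists were chosen with earlier results of these data known. Named were all 9 genes; NFE2L2, KEAP1, BACH1 and the small MAF genes; from each other list the genes called in a test, at most 6 by size; genes whose exons overlap a member; the 2 genes closest to each member by Pearson's r; and HDAC4, FBXW7 and CDKN1A. PRDX2 and TRIB3 in WT cells were named after their values were seen. Intervals are 95% and cover these libraries only.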

Additional observations from a re-analysis of the deposited data

Results flagged for a closer look

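The cases of NQO1 and PRDX1 were picked out by a search over all members and over pairs of comparisons for opposite directions. How many such cases would arise by chance was not tested, and their share among all genes was not counted. They are therefore given as a description of selected values. NQO1 moved in opposite directions with OXPT in 2 backgrounds, in every numbered pair of libraries. It was lower in all 3 pairs in WT cells (log2 change -0.13) and higher in all 3 pairs in KO #11 cells (0.36). Neither change passed the edgeR test, and the difference between them was not tested. Without WT OXPT replicate 2 the WT value was 0.12, no longer opposite to that in #11 cells, and without #11 OXPT replicate 3 the #11 value was 0.094.

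PRDX1 was higher in KO than in WT cells untreated, in all 3 numbered pairs (log2 difference 0.31), and lower in all 3 pairs with OXPT (-0.37). Without WT untreated replicate 3 the untreated difference was 0.096. The interaction of genotype and OXPT was -0.68, or -0.48 without that library. These values are given as a description, since the KO esiCT values of PRDX1 were part of its choice. With both strands summed and RLE scaling the difference with OXPT was 0.08 and the interaction -0.16. The part of the stretch shared with MMACHC, which differed most between the ways of counting in KO esiCT OXPT replicate 3, was not tested.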

How the results depend on the processing

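SRXN1 held 1 to 164 counts per library, and its 95% interval with OXPT in KO esiCT cells ran from -1.74 to 1.11. Over the 11 other settings, HMOX1 in KO esiHDAC4 cells kept its call in 11 (adjusted p = 2.52e-05 to 0.0321) and SLC7A11 in KO #11 cells in 11 (6.47e-19 to 0.0132). SLC7A11 in WT cells was called in 7 of 11 (4.40e-10 to 0.148). The cause of the changes below was not tested.

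The number of members called in WT cells was 1 with the reverse-strand column, no count filter, the replicate block over all libraries, the block within the groups compared, DESeq2, or both strands without KO esiCT OXPT replicate 3. It was 2 with both strands summed and 3 with both strands and the block. In KO esiCT cells it was 2 without the filter and 1 under the block within groups or with both strands and the block. In KO #11 cells it was 2 without the filter, with only the groups compared, with these and the block, and with both strands and the block. For esiHDAC4 with OXPT it was 1 without the filter. PRDX1 was not set aside in the counts for KO esiCT or esiHDAC4, here or with 1 library left out. Members past 1.5-fold were 1 for #11 with OXPT on both strands without KO esiCT OXPT replicate 3, and 4 for its interaction under both strands and the block. The replicate block changed no other member's call in the fit over all libraries. All genes called with OXPT were 1398 in KO esiCT (553 to 2304 over the settings), 1322 in WT (84 to 2161), 1480 in KO esiHDAC4 (1295 to 2332) and 1175 in KO #11 cells (1020 to 3012). For esiHDAC4 they were 1 untreated (0 to 560, with the block 4) and 0 with OXPT (0 to 13), for KO against WT 36 untreated (1 to 322, with the block 75) and 17 with OXPT (0 to 91), and for the genotype interaction 0 (0 to 24).

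PRDX1 with OXPT in KO esiCT cells was 0.32 on the reverse strand, 0.33 on both strands with TMM or RLE and 0.33 with the block. For KO against WT with OXPT it was 0.056 on the reverse strand and 0.085 on both strands (RLE), and its esiHDAC4 interaction was -0.013 there. On both strands without KO esiCT OXPT replicate 3, TXN was 0.25 for esiHDAC4 with OXPT, -0.35 for KO against WT with OXPT, -0.34 for the genotype interaction and 0.33 for the esiHDAC4 interaction.

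Leaving out 1 library gave 0 to 1 members called in KO esiCT, 0 to 2 in WT, 0 to 1 in KO esiHDAC4 and 0 to 1 in KO #11 cells, 2 past 1.5-fold for untreated #11, 0 to 2 for #11 with OXPT and 2 to 4 for its interaction. It turned the sign of some log2 values, among them the following. With OXPT, NQO1 in WT cells ran from -0.40 to 0.12, GCLC in WT cells from -0.36 to 0.099, and NQO1 (-0.0041 to 0.75), GCLM (-0.047 to 0.63) and TXNRD1 (-0.13 to 0.43) in KO esiHDAC4 cells, where the last 3 were lowest without OXPT replicate 1. For esiHDAC4 with OXPT, HMOX1 ran from -0.0078 to 0.87 and TXN from -0.27 to 0.26. For KO against WT, GCLC untreated ran from -0.36 to 0.12, and with OXPT SLC7A11 from -0.52 to 1.24 and TXN from -0.37 to 0.21. The genotype interaction ran from -0.57 to 0.78 for HMOX1 and from -0.37 to 0.21 for TXN, and the esiHDAC4 interaction from -0.19 to 0.34 for TXN.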

Other observations

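The 12 WT libraries whose labels contradict each other on OXPT were scaled together with the 24 others and are given as values, with no comparison. TXNRD1 was at 323 to 873 CPM in them (median 605), GCLM at 23.2 to 88.0 CPM (median 51.4) and HMOX1 at 37.5 to 209.9 CPM (median 110.1). NQO1 was at 327 to 905 CPM (median 596), TXN at 266 to 658 CPM (median 501), GCLC at 37.7 to 115 CPM (median 65.8) and SLC7A11 at 2.55 to 105 CPM (median 13.3). PRDX1 ran from 486 to 1451 CPM (median 762) and SRXN1 from 2.63 to 17.2 CPM (median 6.12).

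HDAC4 mRNA was lower with OXPT in KO esiCT (by a log2 change of -1.56), WT (-1.29) and KO esiHDAC4 (-1.48) cells, all called by edgeR, and was -0.50 in KO #11 cells, not called (adjusted p = 0.214).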
